A study of Mus musculus with 88 samples.

Results

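The genes described are 9 CC chemokines, Ccl2, Ccl3, Ccl4, Ccl7, Ccl8, Ccl11, Ccl20, Ccl22 and Ccl24, out of 18069 genes that the arrays named. Members were found by their symbol in the platform annotation, updated through the Entrez number, and each had 1 probe. All 9 passed the filter on dim genes, as did 13465 genes in all. The transcripts were followed in 4 mouse tumours growing in the hind legs of C3H/HeNrs mice, after carbon ions or after gamma rays, which served as the reference beam. The question was how each chemokine differed from untreated tumours over beam, dose, time and tumour.

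CC chemokines are small secreted proteins, named for adjacent cysteines, that bind G protein-coupled receptors on leukocytes and draw these cells out of blood and through tissue. Ccl2 and Ccl7 act on CCR2 and mobilise inflammatory monocytes, Ccl11 and Ccl24 are eotaxins that act on CCR3 of eosinophils, and Ccl3, a ligand of CCR1, and its neighbour Ccl4 are macrophage inflammatory proteins. Mouse Ccl8 acts on CCR8, Ccl20 is the ligand of CCR6, and Ccl22 is a ligand of CCR4. In tumours these proteins come from malignant cells, fibroblasts, endothelium and the infiltrating leukocytes themselves, and the RNA measured here was from whole tumours.

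The irradiated tumours received 30 Gy of carbon ions, 30 Gy of gamma rays or 50 Gy of gamma rays, and were taken 6 h, 1 day or 3 days later. Untreated tumours were hybridised separately for the carbon-ion arm and for the gamma-ray arm. NR-S1 and SCCVII were labelled as squamous cell carcinomas that arose spontaneously in C3H/He mice, NFSa as a spontaneous fibrosarcoma and #8520 as a fibrosarcoma induced by radiation in C3H mice. This gave 44 groups of 2 one-colour arrays, 88 in all, of which 32 belong to the carbon-ion arm, 56 to that of gamma rays and 16 to untreated tumours. The labels gave neither age, sex nor genotype beyond the strain. Separate mice for paired arrays were not stated either, so p-values measure only the spread between these arrays. Each tumour is a single transplanted line, and a difference between tumours is one between these lines. In untreated NR-S1 the keratin Krt5 averaged 8.38 and Epcam 7.29 on the log2 scale. In untreated SCCVII, the second carcinoma label, Krt5 averaged -1.62 and Epcam -0.86. Krt5 in SCCVII was thus at the level of the fibrosarcomas (-1.70 in NFSa and -1.96 in #8520). These are 2 of 12 listed genes of keratinocytes and epithelium, and the others are not given here.

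RefSeq promoters in build GRCm38.p6 were at hand for 4 of the 9 genes, Ccl3, Ccl8, Ccl20 and Ccl22. The 250 bases before the transcription start are printed for 3 of them, because Ccl20 and Ccl3 had the highest mean responses at 6 h after carbon ions and Ccl8 was among the strongest at day 3. Each is on the gene's strand, 5′ to 3′, and capitals mark the motif matches described below. Ccl20 lies at chr1:83116516-83116765 on the plus strand, Ccl3 at chr11:83649379-83649628 on the minus strand and Ccl8 at chr11:82114935-82115184 on the plus strand.
Ccl20: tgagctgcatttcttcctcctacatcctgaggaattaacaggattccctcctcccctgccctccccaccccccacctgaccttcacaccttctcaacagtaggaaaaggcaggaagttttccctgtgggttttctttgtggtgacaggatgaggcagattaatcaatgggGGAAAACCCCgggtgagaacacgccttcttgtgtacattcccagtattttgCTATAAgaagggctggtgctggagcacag
Ccl3: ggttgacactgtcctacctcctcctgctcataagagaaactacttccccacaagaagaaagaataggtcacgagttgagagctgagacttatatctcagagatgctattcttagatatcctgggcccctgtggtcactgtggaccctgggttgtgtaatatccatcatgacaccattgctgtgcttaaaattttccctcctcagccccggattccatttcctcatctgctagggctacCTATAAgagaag
Ccl8: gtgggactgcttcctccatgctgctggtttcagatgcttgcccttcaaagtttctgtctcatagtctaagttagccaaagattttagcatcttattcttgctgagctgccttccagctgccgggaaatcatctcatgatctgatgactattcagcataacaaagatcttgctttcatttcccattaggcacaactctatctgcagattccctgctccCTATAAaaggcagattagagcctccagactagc
Motifs of 5 kinds were searched on both strands, and they were chosen after the sequences had been seen. CTATAA, the core of a TATA box, was found 29 to 24 bases before the start of Ccl20, 33 to 28 before Ccl8 and 12 to 7 before Ccl3. It was present in 7.26% of 32851 promoters of the same length. GGGNNNTTCC, a form of NF-kB site, matched Ccl20 on the minus strand 80 to 71 bases before the start, and 4.65% of all promoters held it. TGANTCA, an AP-1 site, GAAANNGAAA, an interferon response element, and TTCNNNNGAA, a STAT site, were in 6.75%, 2.98% and 5.85% of promoters, and none of these letters occurred in the windows of these 4 genes. These matches are descriptions of letters, not of binding. Ccl2, Ccl7, Ccl11 and Ccl8 lie in one cluster on chromosome 11 and Ccl3 and Ccl4 next to each other in another, while Ccl24 is on chromosome 5, Ccl20 on chromosome 1 and Ccl22 on chromosome 8.

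Values are log2 of the deposited intensity, which had been scaled to array medians between 1.02 and 1.07, so 0 lies close to the median probe of an array. The 2 arrays of a group correlated at 0.990 to 0.998. On 8 arrays, taken from SCCVII and #8520 on day 1 or day 3 after 50 Gy, the dim end was raised, with a first percentile of 0.297 to 0.378 against 0.0128 to 0.134 on the other 80. Of the 9 chemokines Ccl20 fell below the highest of the ordinary first percentiles, -2.90 on the log2 scale, on 3 arrays, and no other member did. The raised first percentiles were higher. Untreated intensity fell as low as 0.321 for Ccl11 in SCCVII and 0.341 for Ccl24 in #8520, and Ccl20 in #8520 was at most 0.309. The part of the raised dim end in the day 1 and day 3 responses of these genes there to 50 Gy was not tested. Ccl24 had no value on one carbon-ion day 3 array of NR-S1, nor Ccl22 on one untreated gamma-arm array of SCCVII, and the fits there rest on the other array of the group.

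Untreated tumours differed widely in Ccl2 and Ccl7, the ligands of CCR2, and in Ccl11. Ccl2 averaged 3.12 ± 0.12 in NR-S1, 6.08 ± 0.20 in SCCVII, 7.33 ± 0.17 in NFSa and 7.18 ± 0.22 in #8520 (SD, n = 4 arrays each, 2 from each arm). Ccl7 averaged 2.78 ± 0.31 in NR-S1, 6.10 ± 0.17 in SCCVII, 7.42 ± 0.05 in NFSa and 7.01 ± 0.18 in #8520. NR-S1 was the lowest of the 4 tumours for both genes, with no overlap with any other tumour, and the differences to SCCVII were -2.96 for Ccl2 (adjusted p = 3.8e-42 by limma) and -3.32 for Ccl7 (adjusted p = 2.3e-37). The top neighbours for Ccl2, NFSa and #8520, differed by only 0.15 (adjusted p = 0.032) and overlapped array by array. Ccl11 ran in another order, averaging 0.37 ± 0.09 in NR-S1, -1.07 ± 0.63 in SCCVII, 3.50 ± 0.51 in NFSa and 2.17 ± 0.11 in #8520. The eotaxin was thus higher in each fibrosarcoma than in each of the tumours labelled as carcinomas, NR-S1 and SCCVII. SCCVII minus NFSa came to -4.57 (adjusted p = 1.2e-33 by limma).

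Ccl20 had the opposite placing, with -0.45 ± 0.18 in NR-S1 and means of -2.39 to -2.08 in the other 3 tumours. NR-S1 was higher than SCCVII by 1.94 (adjusted p = 1.3e-11), than NFSa by 1.63 (adjusted p = 2e-09) and than #8520 by 1.73 (adjusted p = 4.1e-10), while the 3 differences among those others did not pass. The levels of Ccl3, Ccl4, Ccl8, Ccl22 and Ccl24 lay closer together between tumours. Each of the 9 genes differed among the 4 untreated tumours by the moderated F test, as did 91.3% of all genes tested. Between pairs of tumours 71% of genes were called for NR-S1 against SCCVII, 74.3% for NR-S1 against NFSa and 53.9% for NFSa against #8520, so a call by itself does not set these genes apart.

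**Figure D1:**
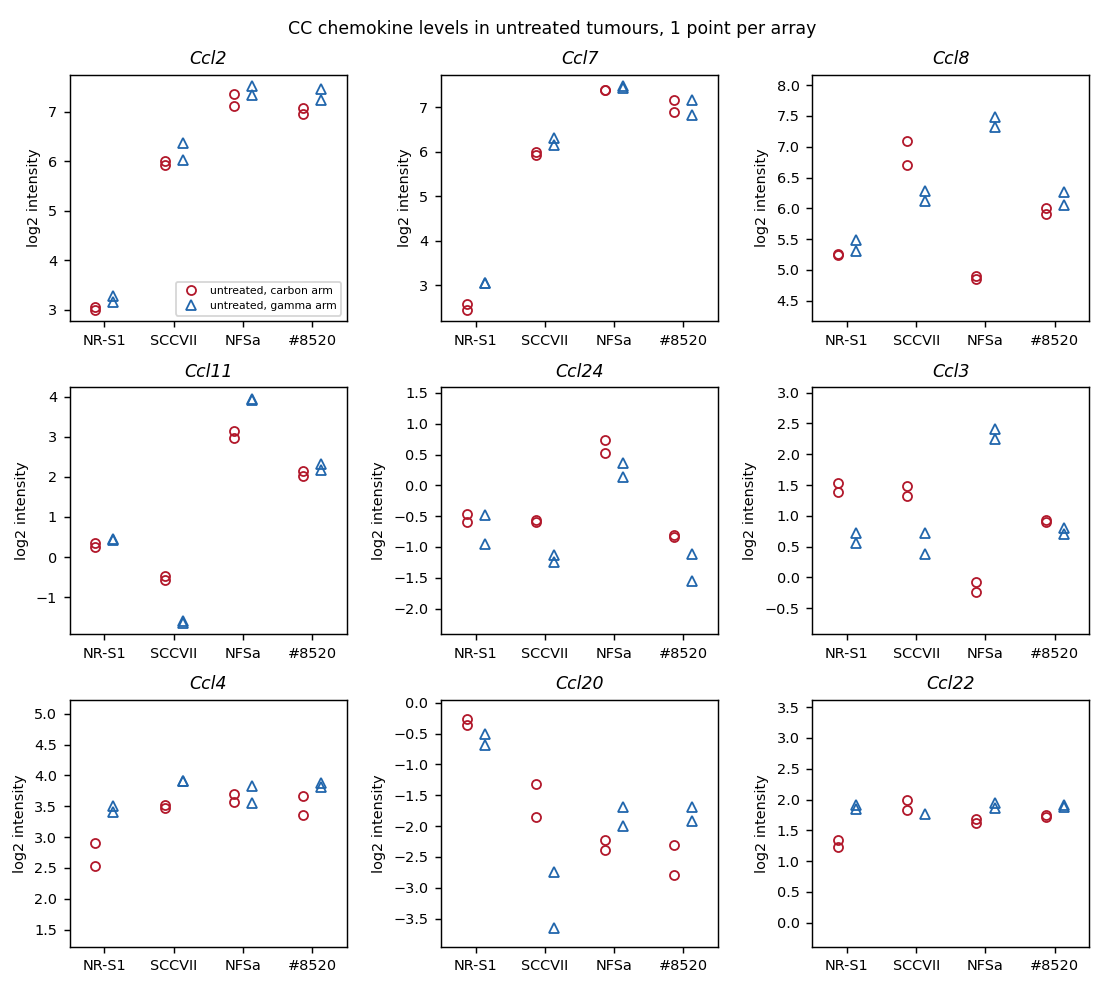
Level of each chemokine in untreated tumours as log2 intensity, with a point for each array (2 of the carbon-ion arm and 2 of the gamma-ray arm per tumour). Ccl2 and Ccl7 are lowest in NR-S1, Ccl11 is highest in NFSa, and the untreated NFSa arrays of the 2 arms lie far apart for Ccl3 and Ccl8.

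The untreated arrays of the 2 arms were not interchangeable. In NFSa, Ccl8 was 4.86 and 4.91 on the carbon-ion arm's untreated arrays against 7.48 and 7.31 on those of the gamma arm, a difference of -2.52 (adjusted p = 4.3e-25). Ccl3 was -0.07 and -0.24 against 2.40 and 2.24, a difference of -2.48 (adjusted p = 6.2e-28). In SCCVII the carbon-ion arm's untreated arrays were higher for Ccl20 by 1.61, Ccl11 by 1.09 and Ccl3 by 0.86. Over the 4 tumours 7 members differed between the untreated sets, where 60.2% of genes did, and this stands beside every comparison of beams below. Each response was therefore taken against the untreated arrays of the same tumour and the same arm.

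Averaged over the 4 tumours, most of these chemokines were higher at day 3 after each treatment, and Ccl2, Ccl3, Ccl7, Ccl11 and Ccl20 were higher at 6 h after each as well. After gamma rays the 6 h means of Ccl2 at 30 Gy and of Ccl7 at either dose rested on NR-S1. Without that tumour Ccl2 was 0.10 (adjusted p = 0.1 by limma) and Ccl7 0.15 (adjusted p = 0.097) after 30 Gy. Ccl7 after 50 Gy was -0.04 without it (adjusted p = 0.66). After 30 Gy of carbon ions 6 of the 9 members were higher and none lower at 6 h, where 40.5% of genes passed (21% higher and 19.5% lower). At day 1 there were 5 higher and none lower, beside 42.1% of genes (25.5% higher, 16.6% lower), and at day 3 7 higher and none lower, beside 68.2% (26.4% higher, 41.8% lower). After 30 Gy of gamma rays 6 rose and 1 fell at 6 h, beside 37.7% of genes (19.3% higher, 18.4% lower). Then 4 rose and 1 fell at day 1, beside 42.8% (21.2% higher, 21.7% lower), and 5 rose and 1 fell at day 3, beside 54.1% (23.1% higher, 30.9% lower). After 50 Gy of gamma rays 7 rose and 1 fell at 6 h, beside 49.7% (22.8% higher, 26.9% lower). At day 1 6 rose and 3 fell, beside 68.2% (23.1% higher, 45.1% lower), and at day 3 7 rose and 1 fell, beside 73.4% (28.7% higher, 44.7% lower). Under quantile normalization 3 rose and 3 fell at day 1 after 50 Gy, with Ccl2 called lower at -0.19 (adjusted p = 0.0019) and Ccl24 at -0.05 (adjusted p = 0.62). With the deposited scaling the members were called higher more often than genes in general at each treatment and time, while the share called in either direction was nearer to that of all genes. The members were chosen with earlier results of these data known, so this comparison describes them and is not an independent test.

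The medians of the 9 responses to carbon ions at 6 h, day 1 and day 3 were 0.77, 0.31 and 0.98, where the medians over all genes were -0.01, 0.01 and -0.08. In whole tumours fewer cells of a type and less RNA per cell cannot be told apart, nor can more cells and more RNA per cell. The errors of these means are those between arrays of a group. With each tumour taken as 1 replicate instead, 3, 1 and 3 members passed after carbon ions at 6 h, day 1 and day 3, and none passed after either gamma dose, so the gamma means describe these 4 tumours only.

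**Figure D2:**
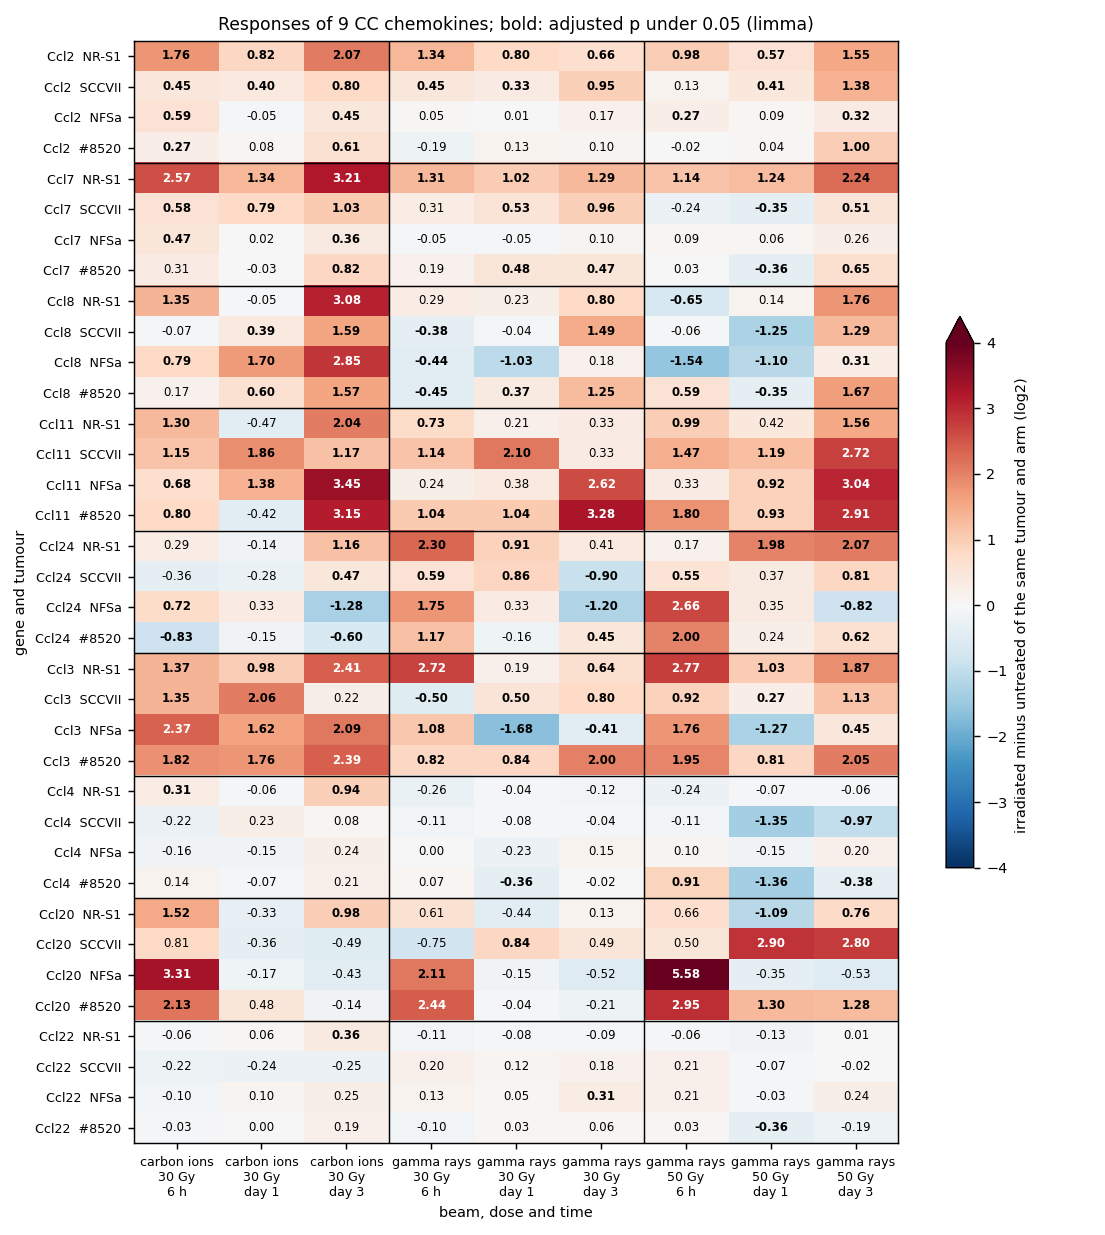
Response of each chemokine in each tumour, as log2 of irradiated over untreated tumours of the same arm, for the 3 treatments and 3 times. Bold values passed an adjusted p of 0.05, and colours stop at 4, so that the Ccl20 value of 5.58 in NFSa at 6 h after 50 Gy shares the colour of that limit.

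Ccl2 was higher at all 9 combinations of treatment and time when the tumours were averaged, but at day 1 after 50 Gy the value of 0.28 became -0.19 under quantile normalization. After carbon ions it rose by 0.77 ± 0.04 at 6 h (SE, 8 irradiated and 8 untreated arrays; 1.70-fold, adjusted p = 4.3e-21), by 0.31 at day 1 (adjusted p = 4.3e-08) and by 0.98 at day 3 (1.98-fold, adjusted p = 1.9e-26). After 50 Gy of gamma rays the day 3 rise was 1.06 (2.09-fold, adjusted p = 1.4e-27), and after 30 Gy of gamma rays it was 0.47 (adjusted p = 2.2e-13). NR-S1, where the untreated level was lowest, gave the highest of its 36 single-tumour responses.

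In NR-S1 Ccl2 reached 4.71 and 4.85 at 6 h, 3.78 and 3.91 at day 1 and 5.08 and 5.11 at day 3 after carbon ions, against 2.99 and 3.05 in untreated tumours. None of these pairs overlapped the untreated pair, and the day 3 response was 2.07. In NFSa the carbon-ion arrays read 7.80 and 7.85 at 6 h, 7.11 and 7.25 at day 1 and 7.75 and 7.62 at day 3, against 7.36 and 7.11 untreated. There the level at day 1 overlapped that of untreated tumours, and the day 3 response was 0.45. In #8520 the rise after 50 Gy was seen at day 3, with 8.37 and 8.32 against 7.23 and 7.47 untreated, and at 6 h and day 1 the responses of -0.02 and 0.04 did not pass. Single-tumour responses of Ccl2 were called higher in 24 of 36 cases and lower in none, with a range of -0.19 to 2.07, where over all genes 36.5% of single-tumour responses were called, 16.6% higher and 19.9% lower.

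Ccl7, encoded next to Ccl2, moved in the same tumours. Its mean response to carbon ions was 0.98 ± 0.06 at 6 h (1.98-fold, adjusted p = 2.2e-19), 0.53 at day 1 (adjusted p = 4.7e-10) and 1.35 at day 3 (2.56-fold, adjusted p = 6.3e-26). In NR-S1 Ccl7 read 4.97 and 5.19 at 6 h, 3.98 and 3.70 at day 1 and 5.76 and 5.67 at day 3 after carbon ions, against 2.45 and 2.57 in untreated tumours. The day 3 response there, 3.21, was the highest of its 36 single-tumour responses, and the groups were far apart. In SCCVII Ccl7 was 6.98 and 7.01 at day 3 after carbon ions against 5.99 and 5.92 untreated, which again left the pairs apart. After 50 Gy of gamma rays, however, SCCVII showed 5.85 and 5.91 at day 1 against 6.15 and 6.31 untreated, a fall of 0.35 that passed, as did the fall of 0.36 in #8520, both on arrays with the raised dim end. The mean of Ccl7 at that time, 0.15 (adjusted p = 0.034), was -0.13 under quantile normalization. Of its 36 single-tumour responses 21 were called higher and 2 lower. NFSa, which had the highest untreated Ccl7, gave responses of -0.05 to 0.47.

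Averaged over tumours, Ccl8 was lower at 6 h after gamma rays and higher at day 3 after either beam, with 18 of 36 single-tumour responses called higher and 9 lower. To 30 Gy of gamma rays it responded by -0.25 at 6 h (adjusted p = 0.00047), -0.12 at day 1 (adjusted p = 0.091) and 0.93 at day 3 (1.91-fold, adjusted p = 4.4e-20). The 6 h value was 0.02 when the untreated arrays of both arms served as baseline. To 50 Gy it responded by -0.42 (adjusted p = 1.9e-08), -0.64 (adjusted p = 4.4e-14) and 1.26 (2.39-fold, adjusted p = 8.8e-26). The early means were not shared by all tumours, since without NFSa the 6 h value after 50 Gy was -0.04 (adjusted p = 0.66) and the day 1 value after 30 Gy was 0.19 (adjusted p = 0.021). In #8520 Ccl8 was higher at 6 h after 50 Gy, by 0.59 (adjusted p = 1.7e-05). After carbon ions it was higher at each time, by 0.56 at 6 h (adjusted p = 7.9e-12), 0.66 at day 1 (adjusted p = 3.6e-14) and 2.27 ± 0.06 at day 3 (4.82-fold, adjusted p = 1.9e-37).

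The day 3 rise of Ccl8 after carbon ions was present in each tumour. NR-S1 read 8.31 and 8.35 at day 3 against 5.24 and 5.26 untreated, and SCCVII 8.41 and 8.56 against 7.10 and 6.70. NFSa read 7.90 and 7.56 against 4.86 and 4.91, and #8520 read 7.56 and 7.49 against 6.01 and 5.90. No irradiated array overlapped an untreated one, and the responses were 3.08, 1.59, 2.85 and 1.57 in this order of tumours. The NFSa value rests on a low untreated level in the carbon-ion arm. In the gamma arm of NFSa, day 3 levels of 7.49 and 7.67 after 30 Gy stood near those after carbon ions, but untreated tumours there were at 7.48 and 7.31, and the response of 0.18 did not pass.

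**Figure D3:**
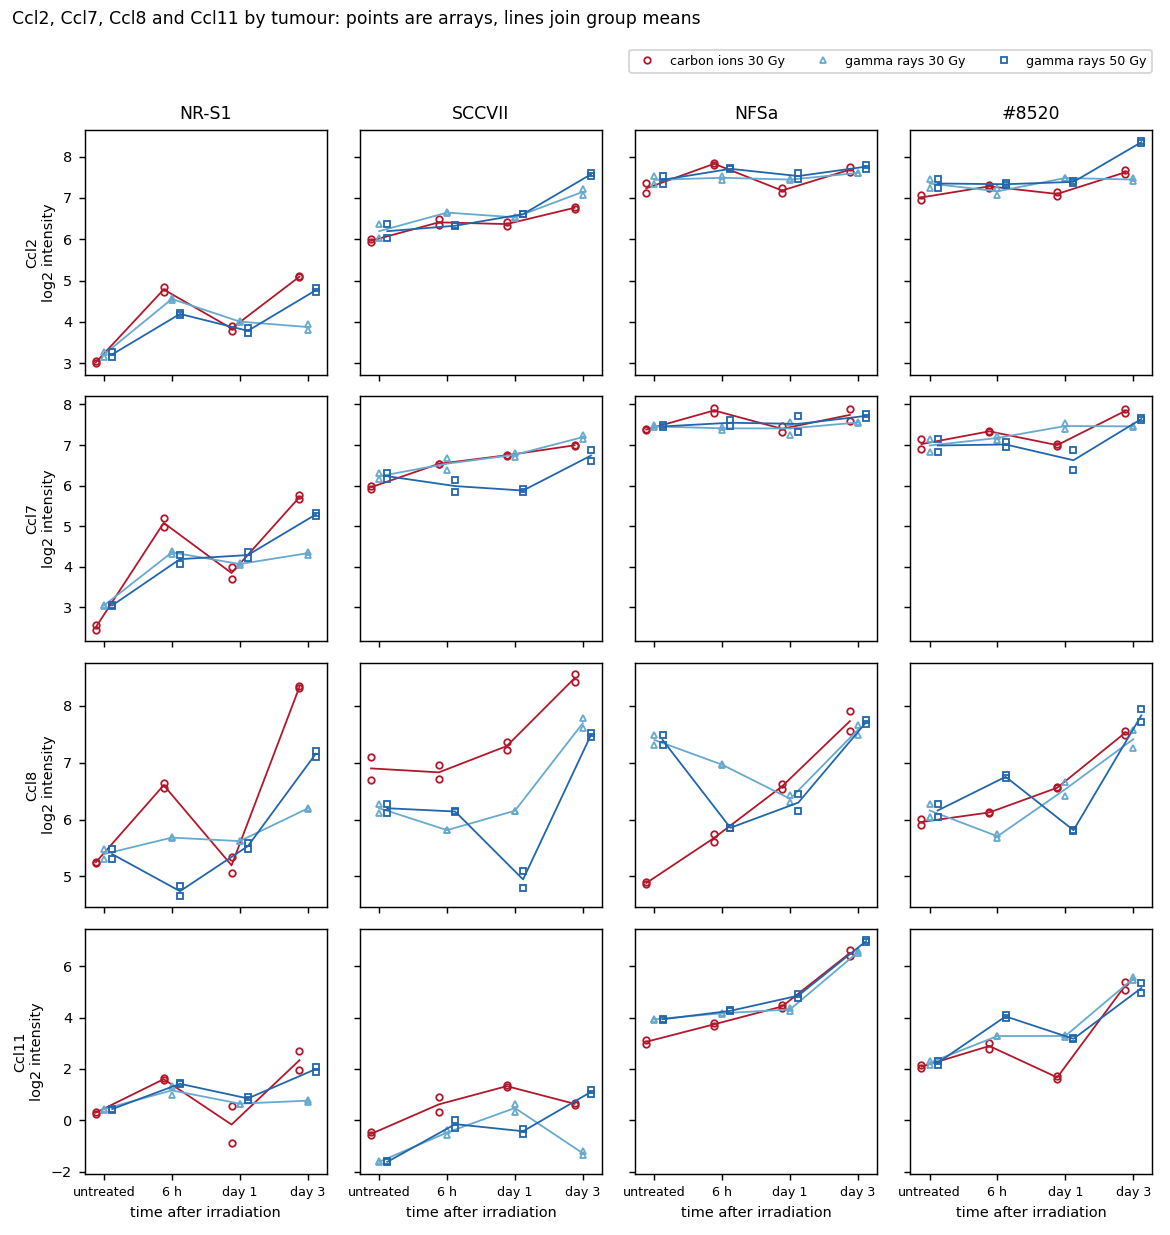
Time course of Ccl2, Ccl7, Ccl8 and Ccl11 as log2 intensity in each tumour, from untreated tumours through 6 h, day 1 and day 3, with a point per array and lines that join group means for carbon ions and the 2 gamma doses. Ccl8 reaches 7.10 to 8.56 at day 3 of carbon ions and of 50 Gy in NR-S1, SCCVII and #8520, and the untreated starting points of the 2 arms differ in NFSa. The Ccl11 mean at day 3 stands above its untreated level in each tumour after each treatment. The rise was called in 4 of 4 tumours after carbon ions and after 50 Gy, and in 2 of 4 after 30 Gy of gamma rays.

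Macrophage markers moved with these genes at day 3. Of 10 tested markers 8 rose and none fell at day 3 after carbon ions, beside 26.4% of all genes higher and 41.8% lower. Their median response was 0.95. At day 3 after carbon ions the list summed to an intensity of 746 on both NR-S1 arrays, against 167 and 172 untreated, and 1410 to 1425 in SCCVII against 799 to 945. It was 942 to 1150 in NFSa against 737 to 754, and 877 to 903 in #8520 against 616 to 628. The part of these markers in the chemokine results was not tested. At 6 h after 50 Gy, 7 of the 10 fell and 1 rose, beside 26.9% of all genes lower and 22.8% higher. The mean Ccl8 response was also negative at that time, but it ranged from -1.54 in NFSa to 0.59 in #8520, both called.

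Among the eotaxins, the mean response of Ccl11 passed as higher at every treatment and time. The mean response to carbon ions was 0.98 ± 0.10 at 6 h (1.98-fold, adjusted p = 7.7e-12), 0.59 at day 1 (adjusted p = 3.3e-06) and 2.45 at day 3 (5.48-fold, adjusted p = 4.3e-28). After 30 Gy of gamma rays it was 0.79, 0.93 and 1.64 (3.12-fold at day 3, adjusted p = 3.9e-20), and after 50 Gy 1.15, 0.86 and 2.56 (5.89-fold at day 3, adjusted p = 1.6e-28). Ccl11 was called higher in 27 of 36 single-tumour responses and lower in none. The day 1 mean after carbon ions came from SCCVII at 1.86 and NFSa at 1.38, while NR-S1 at -0.47 and #8520 at -0.42 did not pass, and without SCCVII the mean was 0.16 (adjusted p = 0.27).

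The 5 highest of these Ccl11 responses were in the fibrosarcomas at day 3. NFSa had 6.64 and 6.38 at day 3 after carbon ions against 2.98 and 3.14 untreated, and in the gamma arm 6.53 and 6.58 after 30 Gy and 7.01 and 6.94 after 50 Gy against 3.91 and 3.96. In #8520 the arrays read 5.08 and 5.40 after carbon ions against 2.03 and 2.15, and in the gamma arm 5.46 and 5.58 after 30 Gy and 4.96 and 5.34 after 50 Gy against 2.31 and 2.17. No irradiated array of these groups reached down to the untreated ones, and the responses were 2.62 to 3.45. The day 3 rise was not particular to the fibrosarcomas. All 4 tumours were called higher at day 3 after carbon ions, by 1.17 to 3.45, and after 50 Gy, by 1.56 to 3.04. The SCCVII response to 50 Gy came from arrays with the raised dim end, and its untreated Ccl11 lay near that level. NR-S1 had 2.70 and 1.98 at day 3 after carbon ions against 0.34 and 0.26 untreated, but only 0.80 and 0.73 after 30 Gy of gamma rays against 0.46 and 0.42, a response of 0.33 that did not pass. At day 1 after carbon ions the 2 NR-S1 arrays disagreed, at 0.55 and -0.88. In SCCVII the course was earlier after 30 Gy of gamma rays, with 0.62 and 0.34 at day 1 and -1.20 and -1.37 at day 3, against -1.59 and -1.64 untreated.

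Ccl24, the other eotaxin measured, had its highest mean responses at 6 h after gamma rays. Its mean response at that time was 1.45 ± 0.08 to 30 Gy of gamma rays (2.73-fold, adjusted p = 1.2e-20) and 1.34 to 50 Gy (2.54-fold, adjusted p = 9e-20), whereas to carbon ions it was -0.04 (adjusted p = 0.72). The carbon-ion mean joined opposite responses, 0.72 in NFSa and -0.83 in #8520, both called, and without NFSa it was -0.30 (adjusted p = 0.013). In NFSa Ccl24 read 2.11 and 1.90 at 6 h after 30 Gy and 3.05 and 2.77 after 50 Gy, against 0.14 and 0.36 untreated. In #8520 it read 0.12 and -0.45 after 30 Gy and 0.85 and 0.48 after 50 Gy, against -1.55 and -1.11. The gamma-irradiated arrays of both fibrosarcomas lay above the untreated ones at 6 h, and the carbon-ion arrays of #8520 lay below them, at -1.65 and -1.65 against -0.80 and -0.84. NR-S1 gave 1.72 and 1.44 at 6 h after 30 Gy against -0.48 and -0.95 untreated, but -0.61 and -0.48 after 50 Gy, which overlapped the untreated pair.

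Later, Ccl24 went in different directions in different tumours. At day 3 after carbon ions its response was called in each tumour, higher in NR-S1 (1.16) and SCCVII (0.47) and lower in NFSa (-1.28) and #8520 (-0.60). NFSa was also lower at day 3 after gamma rays, by -1.20 at 30 Gy and -0.82 at 50 Gy. In NR-S1 the single measured day 3 array after carbon ions stood at 0.63 against -0.60 and -0.46 untreated, and after 50 Gy the arrays read 1.10 and 1.61 against -0.48 and -0.95. In all, 17 of 36 single-tumour responses were called higher and 6 lower.

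Markers of eosinophils gave no common direction beside the eotaxins. Of 9 listed genes 4 were tested, Siglecf, Epx, Ear6 and Alox15, and 3 more, Prg2, Prg3 and Il5ra, were too dim. At day 3 after carbon ions, Ear6 rose by 0.48 and Epx by 0.45, while Alox15 fell by 0.19 and Siglecf fell by 0.12. Summed over the list, intensity in NFSa was 32.1 to 32.8 at day 3 after carbon ions against 37.3 to 40.6 untreated. In NR-S1 it was 20.7 to 22.0 against 28.9 to 31.0. Over the arrays Alox15 ranged from 2.53 to 5.48 on the log2 scale and Siglecf from 1.51 to 2.36. These sums therefore follow Alox15 most and say little of the granule genes. The granule genes Epx and Ear6 stayed below 1 on the log2 scale on every array, and Prg2 was missing or under the -2.90 level on 3 arrays.

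Ccl3 had the most single-tumour responses called of the 9 genes, with 30 of 36 higher and 4 lower. Its mean response to carbon ions held at 1.73 ± 0.05 at 6 h (3.31-fold, adjusted p = 8.5e-35), 1.61 at day 1 (3.04-fold, adjusted p = 4.1e-33) and 1.78 at day 3 (3.43-fold, adjusted p = 6.8e-36). After gamma rays it dipped at day 1, with 1.03, -0.04 and 0.76 after 30 Gy and 1.85, 0.21 and 1.38 after 50 Gy at 6 h, day 1 and day 3. Only the day 1 response to 30 Gy among these 6 did not pass (adjusted p = 0.58). That mean joined opposite responses, with -1.68 in NFSa against 0.50 in SCCVII and 0.84 in #8520, all called, and it was 0.51 without NFSa (adjusted p = 1e-10) and -0.33 without #8520 (adjusted p = 4.7e-06). The 0.21 at day 1 after 50 Gy was -0.06 without NR-S1.

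In #8520 Ccl3 rose in every setting. It read 2.73 and 2.73 at 6 h, 2.69 and 2.65 at day 1 and 3.28 and 3.31 at day 3 after carbon ions, against 0.93 and 0.89 untreated. NFSa read 2.22 and 2.21, then 1.48 and 1.45, then 1.93 and 1.95 at these times, against -0.07 and -0.24 untreated. In the gamma arm of NFSa, where untreated tumours were at 2.40 and 2.24, Ccl3 was 0.70 and 0.60 at day 1 and 1.97 and 1.85 at day 3 after 30 Gy. The day 3 levels of the 2 beams thus overlapped in NFSa while the responses were 2.09 after carbon ions and -0.41 after gamma rays, since the untreated levels differed. SCCVII read -0.12 and 0.21 at 6 h after 30 Gy of gamma rays against 0.38 and 0.72 untreated, a fall of 0.50, and 3.43 and 3.50 at day 1 after carbon ions against 1.49 and 1.32.

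Ccl4, a macrophage inflammatory protein encoded beside Ccl3, did not follow it. Over the 88 arrays it ranged from 2.35 to 4.87, and 3 of its 36 single-tumour responses were called higher and 5 lower. NR-S1 had 3.63 and 3.68 at day 3 after carbon ions against 2.91 and 2.52 untreated, a response of 0.94. In SCCVII it was 2.60 and 2.53 at day 1 and 2.84 and 3.04 at day 3 after 50 Gy, against 3.92 and 3.91 untreated, with no overlap. In #8520 after 50 Gy it read 4.63 and 4.87 at 6 h, 2.35 and 2.62 at day 1 and 3.43 and 3.50 at day 3, against 3.88 and 3.81. These day 1 and day 3 groups are the ones whose arrays had the raised dim end, and the part of that in the falls was not tested.

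Averaged over tumours Ccl20 rose at 6 h, where 3 of 4 tumours were called higher after carbon ions and 2 of 4 after each gamma dose. SCCVII had the lowest 6 h response each time, at 0.81 after carbon ions and -0.75 and 0.50 after 30 and 50 Gy of gamma rays. NFSa had 5.58 after 50 Gy. At day 1 the responses of Ccl20 in 8 of 12 groups did not pass. Its mean response at 6 h was 1.94 ± 0.15 to carbon ions (3.84-fold, adjusted p = 7.8e-16), 1.10 to 30 Gy of gamma rays (2.14-fold, adjusted p = 3.8e-08) and 2.42 to 50 Gy (5.36-fold, adjusted p = 7.5e-20). After carbon ions the responses at day 1 and day 3 were -0.10 (adjusted p = 0.64) and -0.02 (adjusted p = 0.91). The mean after 50 Gy was still 0.69 at day 1 (adjusted p = 8.7e-05) and 1.08 at day 3 (adjusted p = 1.3e-08). Without SCCVII, however, the day 1 value was -0.05. NR-S1 and NFSa had no arrays with the raised dim end, unlike the other tumours at these times after 50 Gy. In NR-S1 and NFSa alone the Ccl20 mean was -0.72 at day 1 (adjusted p = 0.008 by limma). At day 3 it was 0.12 there and did not pass (adjusted p = 0.69).

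NFSa showed the highest Ccl20 peak, with 3.72 and 3.74 at 6 h after 50 Gy and 0.36 and 0.15 after 30 Gy, against -2.00 and -1.70 untreated. At day 1 after 50 Gy it was at -2.15 and -2.25, and the response of -0.35 did not pass. In #8520 the 6 h arrays read 0.54 and 0.72 after 30 Gy and 1.13 and 1.15 after 50 Gy, against -1.92 and -1.70, with no overlap. SCCVII was near the dim end in its gamma arm, at -2.75 and -3.65 untreated, and -2.80 and -5.10 at 6 h after 30 Gy. It stood at -0.38 and -0.21 at day 1 and -0.36 and -0.43 at day 3 after 50 Gy, which are arrays with the raised dim end, so these responses of 2.90 and 2.80 have no settled size. NR-S1 rose after carbon ions at 6 h, to 1.14 and 1.27 against -0.35 and -0.27 untreated.

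**Figure D4:**
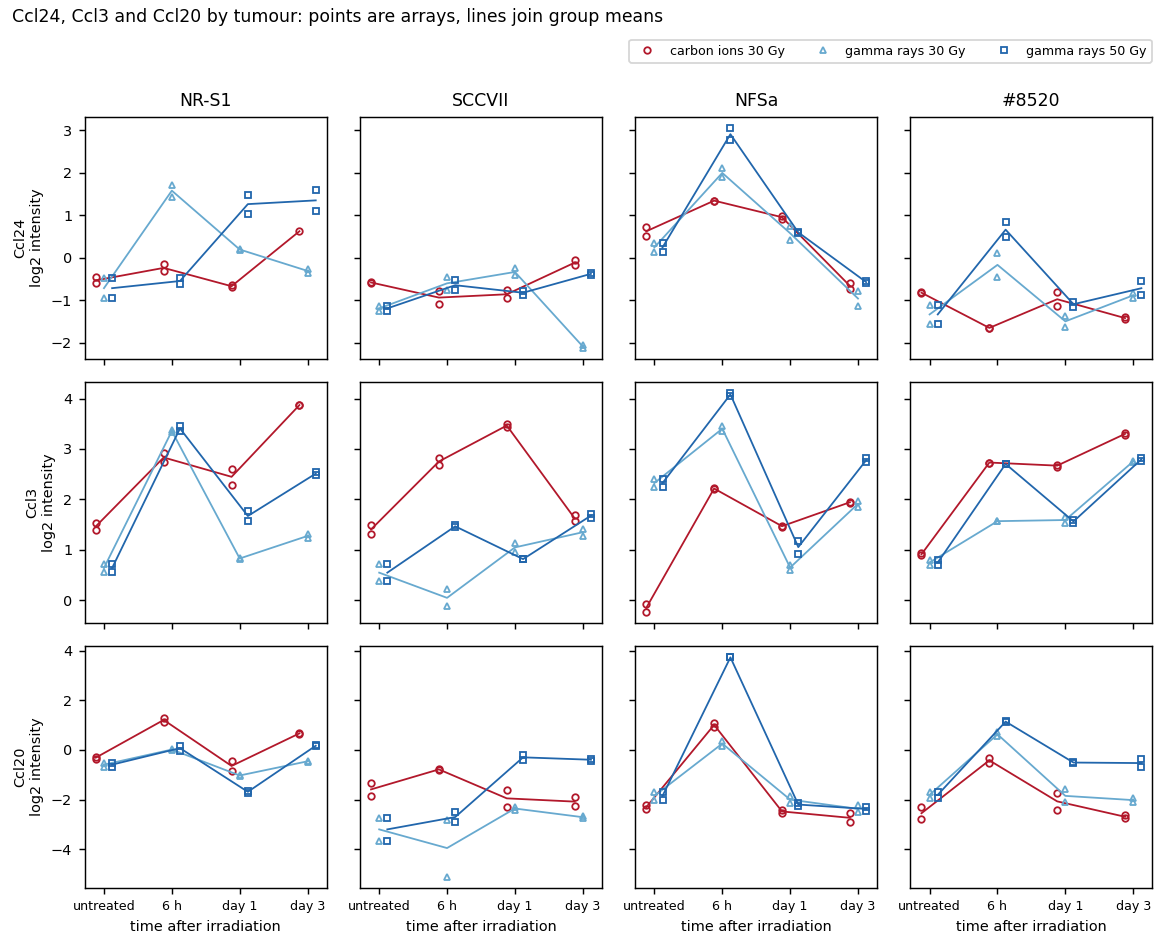
Time course of Ccl24, Ccl3 and Ccl20 as log2 intensity in each tumour, drawn with a point per array and lines through the group means. Ccl24 at 6 h rises after gamma rays in NFSa and #8520, and Ccl20 peaks at 6 h in NFSa, at 3.72 and 3.74 after 50 Gy.

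Markers of neutrophils and of skeletal muscle also moved at 6 h. Of 9 tested neutrophil genes, 8 rose after carbon ions and 8 after 50 Gy of gamma rays at this time, and 7 rose and 1 fell after 30 Gy. Beside these neutrophil genes, 21%, 22.8% and 19.3% of all genes were higher in that order, and 19.5%, 26.9% and 18.4% lower. Summed over the list, intensity in NFSa was 332 to 353 at 6 h after carbon ions against 19.7 to 20.6 untreated, and in the gamma arm 363 to 383 after 30 Gy and 601 to 651 after 50 Gy against 86.3 to 93.7. In SCCVII the sum was 53.2 to 59.6 after carbon ions against 16.2 on both untreated arrays. All 9 muscle genes rose on average at 6 h after each gamma dose, beside 19.3% of all genes higher after 30 Gy and 22.8% after 50 Gy. Their sum in #8520 was 1203 to 1343 after 30 Gy against 511 to 767 untreated. In NR-S1, however, it was 376 to 386 after 30 Gy against 720 to 743. The part of neither list in the 6 h chemokine values was tested.

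Ccl22, which draws CCR4-bearing T cells, hardly changed. It ranged from 1.22 to 2.28 over the arrays on which it had a value, and its mean responses lay between -0.15 and 0.14. Of these 2 passed, 0.14 at day 3 after carbon ions (adjusted p = 0.035) and -0.15 at day 1 after 50 Gy (adjusted p = 0.031), and either was lost when single arrays were left out. Among tumours, NR-S1 read 1.55 and 1.75 at day 3 after carbon ions against 1.22 and 1.35 untreated.

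The course from 6 h to day 3 separated the members. After carbon ions Ccl8 was 1.71 higher at day 3 than at 6 h (adjusted p = 1e-31) and Ccl11 1.47 higher, while Ccl20 was lower by a difference of -1.96 (adjusted p = 1.7e-16) and Ccl3 differed by 0.05, which did not pass. In all 6 members were higher and 1 lower at day 3, beside 62.6% of genes called (21.5% higher, 41.1% lower). After 30 Gy of gamma rays 3 were higher and 3 lower, beside 46.8% (17.2% higher, 29.6% lower), with the widest fall for Ccl24 at -1.76 (adjusted p = 1.4e-24). After 50 Gy 4 were higher and 4 lower, beside 71.4% (26.7% higher, 44.7% lower), with Ccl8 at 1.67, Ccl20 at -1.34 and Ccl24 at -0.67. The last 2 rested on NFSa, since without it Ccl20 was 0.24 (adjusted p = 0.21) and Ccl24 was 0.26 and called higher (adjusted p = 0.014). Without NFSa the course of Ccl24 after carbon ions was 0.64 (adjusted p = 7.8e-07), beside -0.02 with it.

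At the same 30 Gy, and against the untreated tumours of each arm, most members that differed between beams at 6 h and at day 3 had the larger mean response after carbon ions. At 6 h 5 members responded more to carbon ions and 1 less, where 15.9% of genes were called (9.28% higher and 6.62% lower). Ccl8 differed by 0.81 ± 0.08 (SE; adjusted p = 2.8e-11), Ccl3 by 0.70 (adjusted p = 1.6e-11), Ccl7 by 0.54 (adjusted p = 5.6e-06), Ccl20 by 0.84 (adjusted p = 0.004, and 0.56 without the second SCCVII array at 6 h after gamma rays) and Ccl2 by 0.35 (adjusted p = 2.8e-05). Ccl24 was the exception, at -1.49 ± 0.12 (adjusted p = 1.7e-14), and it was lower after carbon ions in each of the 4 tumours, by -2.00 in NR-S1, -0.95 in SCCVII, -1.03 in NFSa and -2.00 in #8520. The Ccl3 difference at 6 h was not shared, being -1.35 in NR-S1 and 1.85, 1.29 and 1.00 in SCCVII, NFSa and #8520.

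At day 3 the beams differed for 6 members, each higher after carbon ions, where 36% of genes differed (15.8% higher and 20.2% lower). The differences were 1.34 for Ccl8 (adjusted p = 9.7e-20), 1.02 for Ccl3 (adjusted p = 6e-18), 0.81 for Ccl11 (adjusted p = 7.2e-06), 0.65 for Ccl7 (adjusted p = 3.3e-08), 0.51 for Ccl2 (adjusted p = 1.8e-09) and 0.37 for Ccl4 (adjusted p = 3e-04). The Ccl4 difference was -0.01 (adjusted p = 0.86) with the untreated arrays of both arms as baseline. Without NR-S1 the calls of Ccl7, at 0.23 (adjusted p = 0.096), and Ccl4, at 0.15 (adjusted p = 0.27), were lost. NR-S1 had values of 2.28 for Ccl8, 1.92 for Ccl7 and 1.41 for Ccl2, whereas SCCVII had 0.09, 0.07 and -0.15 for the same genes, none of which passed. The NFSa values of 2.66 for Ccl8 and 2.51 for Ccl3 again carry the gap between its untreated arrays. Without NFSa the day 3 means were 0.90 for Ccl8, 0.52 for Ccl3 and 0.78 for Ccl7, all still called.

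At day 1 the difference was called for 3 members, 2 higher and 1 lower, beside 25.1% of genes (17.1% higher, 8.03% lower). Ccl3 differed by 1.64 (adjusted p = 3.5e-26) and Ccl8 by 0.78 (adjusted p = 4.1e-11), while Ccl24 was lower by -0.54 (adjusted p = 0.00039). NFSa alone gave 2.73 for Ccl8, and without that tumour the mean was 0.13 and the call was lost (adjusted p = 0.34). For Ccl3 the mean without NFSa was 1.09. Ccl11 went the other way without NFSa, at -0.79 (adjusted p = 0.00025), beside -0.35 with it (adjusted p = 0.067). Without the first NR-S1 array of carbon ions, day 1, it was -0.53 (adjusted p = 0.00011).

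When the untreated arrays of both arms served as the common baseline of a tumour, the beam differences at 6 h and day 3 became smaller for Ccl2, Ccl7 and Ccl8. At 6 h they were 0.11 for Ccl2, 0.33 for Ccl7 and 0.27 for Ccl8, and at day 3 they were 0.27, 0.44 and 0.80, all still called. Ccl24 at 6 h was -1.07 and Ccl3 0.54 on this baseline, while Ccl22, at -0.35, and Ccl4, at -0.29, were called lower after carbon ions. At day 1 the count of 2 higher and 1 lower became 2 higher and 5 lower. The 5 were Ccl11 at -0.37, Ccl22 at -0.27, Ccl2 at -0.24, Ccl4 at -0.22 and Ccl7 at -0.18, none of which was called against its own arm's untreated tumours, and the call of Ccl24 was lost at -0.12 (adjusted p = 0.2). The carbon-ion and gamma-ray arms were hybridised with their own untreated tumours, and an arm effect on irradiated arrays and an effect of the beam cannot be told apart.

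**Figure D5:**
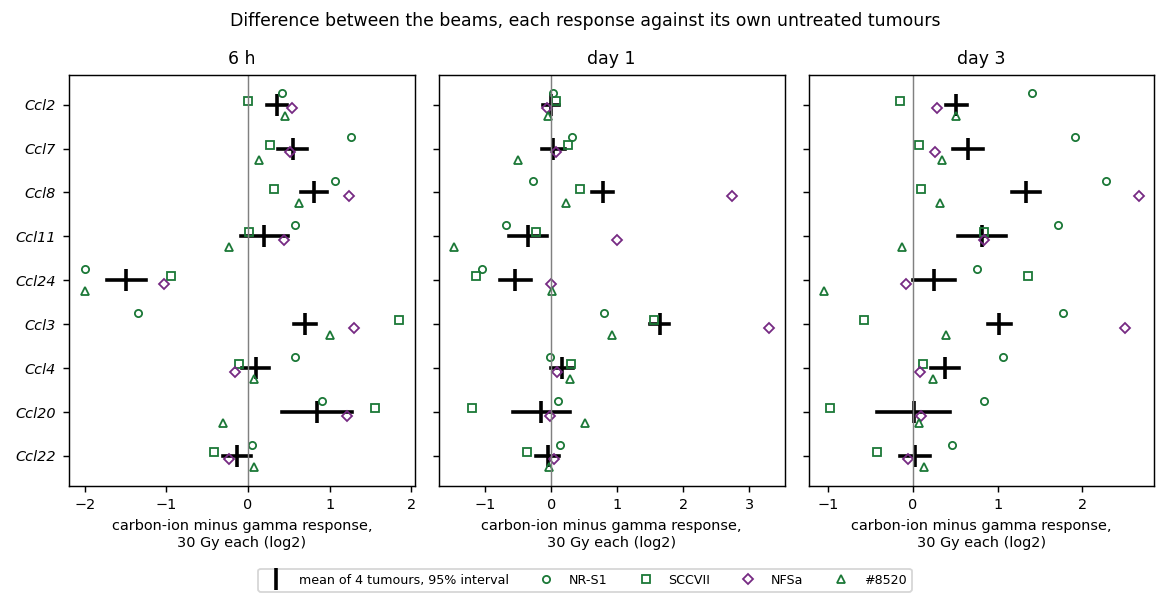
Difference between the responses to 30 Gy of carbon ions and 30 Gy of gamma rays (log2, carbon ions minus gamma rays) for each chemokine at 6 h, day 1 and day 3, with a point per tumour and the mean of the 4 with its 95% interval. Ccl24 lies below 0 in each tumour at 6 h, and Ccl8 at day 3 lies above 0, from 0.09 in SCCVII to 2.66 in NFSa.

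Raising the gamma dose to 50 Gy, in comparison with 30 Gy in the same tumours, changed the members unequally. At 6 h 4 were higher and 2 lower at 50 Gy, beside 27.1% of genes called (10.9% higher, 16.2% lower), with Ccl20 at 1.32 (adjusted p = 4.8e-10), Ccl3 at 0.82 (adjusted p = 1.1e-19) and Ccl11 at 0.36 (adjusted p = 0.0048). Ccl7 was lower by -0.19 (adjusted p = 0.021), a call that was lost on leaving out any of 6 single arrays (adjusted p of 0.052 to 0.092) or #8520 (adjusted p = 0.058). Without #8520 the calls of Ccl11, at 0.23 (adjusted p = 0.21), and Ccl4, at 0.04 (adjusted p = 0.76), were lost as well. Then Ccl24, at -0.42 (adjusted p = 0.0011 by limma), and Ccl2, at -0.15 (adjusted p = 0.028), were called lower. By tumour, 0 members were called higher and 3 lower in NR-S1, beside 2.07% and 6.03% of genes. In #8520 it was 5 and 0 (14% and 22.7%). In SCCVII it was 2 and 2 (4.99% and 2.68%), and in NFSa 3 and 1 (7.52% and 8.28%). At day 1 3 were higher and 4 lower, beside 62.8% of genes (19.6% higher, 43.1% lower), and the falls were those of Ccl4 (-0.55), Ccl8 (-0.52), Ccl7 (-0.35) and Ccl22 (-0.18). At day 3 7 were higher and 1 lower, beside 59.5% (23.9% higher, 35.5% lower), led by Ccl20 at 1.11 (adjusted p = 1.7e-08), Ccl24 at 0.98 (adjusted p = 2.1e-14), Ccl11 at 0.92 (adjusted p = 4.4e-11), Ccl3 at 0.62 and Ccl2 at 0.59. At day 1 and day 3 the 50 Gy groups of SCCVII and #8520 are those with the raised dim end. In NR-S1 and NFSa alone 2 members passed at day 1, Ccl3 at 0.62 and Ccl24 at 0.54, both higher, while Ccl4 was 0.03, Ccl7 0.17, Ccl8 -0.08 and Ccl22 -0.07. In these tumours the day 3 difference of Ccl20 was 0.31 and did not pass (adjusted p = 0.43). Under quantile normalization the day 1 difference of Ccl22 became 0.01 and that of Ccl24, 0.25, became -0.49, and at day 3 5 members passed in place of 8.

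The tumours also differed in how much a member responded. By the moderated F test the response of 7, 5 and 9 members differed between tumours after carbon ions at 6 h, day 1 and day 3, beside 45%, 58.3% and 61.9% of genes. After 30 Gy of gamma rays it was 7, 6 and 6 members beside 36.9%, 52.4% and 56%, and after 50 Gy 8, 7 and 8 beside 59.6%, 76.5% and 77%. NR-S1 was the one tumour with each of the 9 members called higher in a setting, at day 3 after carbon ions, where 20.9% of genes were higher.

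Over the 88 arrays, each centred on its tumour's mean, Ccl2 and Ccl7 correlated at 0.805, Ccl8 and Ccl11 at 0.635 and Ccl7 and Ccl8 at 0.626. The lowest pair was Ccl20 and Ccl22 at -0.151. These are descriptions over arrays that share tumours, treatments and scaling. The genes most like Ccl8 were Lst1 (r = 0.907, and 0.863 to 0.947 within single tumours of 22 arrays), Fcgr4 (0.887), an Fc receptor, and Aif1 (0.879), a marker of macrophages. Those most like Ccl3 were Hdc (0.827, and 0.637 to 0.971 within tumours), which makes histamine, Mxd1 (0.782) and the cytokine receptor gene Il7r (0.774).

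For Ccl7 they were Csf2ra (0.782), a subunit of the GM-CSF receptor, Emilin2 (0.753) and the complement receptor C3ar1 (0.748). For Ccl2 they were Arap1 (0.766), Plek (0.762) and the chemokine Ccl12 (0.746). Ccl20 was closest to Mrgpra2b (0.806), Selp (0.778), which encodes P-selectin, and Serpinb2 (0.737), an inhibitor of plasminogen activators. Ccl11 was closest to Apod (0.746), Tmem163 (0.732) and Nipal3 (0.731), and Ccl24 to G0s2 (0.638), Fam89a (0.598) and Cd209a (0.596), the weakest set of the 9. Ccl4 was closest to Spdye4b (0.823), Gbgt1 (0.799) and Zfp651 (0.791), and Ccl22 to Pls1 (0.756), Tmc8 (0.748) and Olfr1289 (0.742). Not all of these pairs held within each tumour. The lowest r in a single tumour was -0.448 for Zfp651 and 0.215 for Gbgt1 with Ccl4. It was 0.213 for Arap1 and 0.238 for Plek with Ccl2, 0.223 for Apod with Ccl11 and 0.162 for G0s2 with Ccl24. For others it was higher, such as 0.643 for Ccl12 with Ccl2 and 0.679 for Mrgpra2b with Ccl20.

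Of 12 other CC chemokines listed 9 were tested. At day 3 after carbon ions 7 rose and 1 fell, beside 26.4% of genes higher and 41.8% lower. At day 3 after gamma rays 5 rose and none fell at 30 Gy, beside 23.1% and 30.9%, and 7 rose and none fell at 50 Gy, beside 28.7% and 44.7%. Ccl5, which draws T cells and monocytes, responded to carbon ions by 0.21, -0.06 and 2.29 at 6 h, day 1 and day 3, to 30 Gy of gamma rays by -0.63, -0.62 and 1.77, and to 50 Gy by -1.09, -1.61 and 1.12. Its early negative values after gamma rays and later rise resemble the order seen for Ccl8. Ccl12, a mouse ligand of CCR2, rose by 1.35 at day 3 after carbon ions, Ccl19 by 1.15, Ccl6 by 1.10 and Ccl9 by 1.04.

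Of the CC receptors 4 could be tested, while Ccr3, Ccr6, Ccr7, Ccr8 and Ccr10 were too dim. Ccr2, the receptor of Ccl2 and Ccl7, rose by 0.64 at day 3 after carbon ions, while after gamma rays its day 3 responses were -0.56 at 30 Gy and -0.11 at 50 Gy. Ccr1, a receptor of Ccl3, responded by 0.47, 0.24 and 0.44 to carbon ions at 6 h, day 1 and day 3. Ccrl2, an atypical receptor that binds without signalling for migration, responded by 1.00, 0.87 and 1.87 at these times. Of 6 tested cytokines known to induce chemokines, 4 rose at 6 h after carbon ions, 3 rose and 1 fell after 30 Gy of gamma rays and 5 rose and 1 fell after 50 Gy. Of all genes 21%, 19.3% and 22.8% were higher in that order, and 19.5%, 18.4% and 26.9% lower. Il1b responded by 2.35 to carbon ions, 1.33 to 30 Gy and 1.83 to 50 Gy of gamma rays at 6 h, and Il6 by 2.08, 1.05 and 2.32.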

How the data were processed

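Total RNA was hybridised in one colour (Cy5, CodeLink) to 88 arrays, per the labels' protocols. The values the authors deposited are an intensity for each of 36227 probes, on a linear scale. The scanner software, how background was removed and how arrays were scaled are each not given in the sources used here. Of all values 0.751% were missing and 0.150% were not above 0, and those not above 0 were set missing before log2 was taken, with no further normalization. Groups came from the titles. Probes with 1 symbol (21615) were named by the platform annotation, updated by Entrez number to RefSeq (GRCm38.p6). For each of 18069 genes the probe of highest mean log2 was kept, and tests left out the dimmest 25% of genes and those present on under 80% of arrays. The number of arrays limits the precision.

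A limma (3.58.1, R 4.3.3, data.table at version 1.17.8) model gave each of 44 groups its mean, with 44 residual and 7.30 prior degrees of freedom. Two-sided p-values were adjusted within a comparison by Benjamini-Hochberg over all tested genes, with a threshold of 0.05. A response is irradiated minus untreated of the same tumour and arm. The code was tested on simulated data. Named genes are the 9 members, the 3 genes most alike to each (Pearson over tumour-centred arrays), and up to 4 genes of each list. The members and gene lists were chosen with earlier results of these data known. Alternatives were quantile normalization, median centring, an offset of 0.1, other filters, the mean of probes, another variance model, a replicate block, both arms' untreated arrays, each tumour as 1 replicate, leaving out a tumour or array, and NR-S1 and NFSa only.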

Additional observations from a re-analysis of the deposited data

Results flagged for a closer look

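Each of these genes had a response against untreated tumours that differed between the 4 tumours, by limma's moderated F test over the fit to all genes, in at least 1 of the 9 combinations of treatment and time. This was so for Ccl2, Ccl3, Ccl7 and Ccl8 in 9 of 9 combinations, for Ccl24 in 8, for Ccl11 in 7, for Ccl20 in 6, for Ccl4 in 5 and for Ccl22 in 1. Some of these calls were lost when single arrays were left out. The F of Ccl22 at day 3 after carbon ions went from 5.20 to as low as 2.83. That of Ccl4 at 6 h after carbon ions went from 4.48 to 2.47, and that of Ccl11 at 6 h after 30 Gy of gamma rays from 4.06 to 2.96. Other combinations of Ccl4, Ccl11, Ccl20 and Ccl22 became called. The share of all genes whose response differed ran from 36.9% at 6 h after 30 Gy of gamma rays to 77% at day 3 after 50 Gy.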

How the results depend on the processing

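The replicate numbers did not pair the arrays (7 of 28 correlations of same-numbered deviations above 0.1, range -0.193 to 0.390), and with the number as a replicate block 6, 5 and 7 members passed after carbon ions at 6 h, day 1 and day 3, as without it. With each tumour as 1 replicate, 4 values replaced 16 arrays. Then 3, 1 and 3 members passed by limma after carbon ions in place of 6, 5 and 7, and 0 at every time after 30 or 50 Gy of gamma rays. At an unadjusted p under 0.05 there were 2, 3 and 4 members after 30 Gy and 4, 3 and 5 after 50 Gy. The cause of the lost calls was not tested. Of the counts over the 9 members, the difference between gamma doses at day 3 went to 5 under quantile normalization in place of 8, that at day 1 to 4 without #8520 and 2 in NR-S1 and NFSa alone in place of 7, and the beam difference at day 1 to 7 with both arms' untreated arrays in place of 3. Signs of values that had passed turned as follows, and the cause was not tested. Quantile normalization, which moved the median over all genes of the dose difference at day 1 by 0.101, gave at day 1 after 50 Gy -0.19 for Ccl2, 0.062 for Ccl22, -0.052 for Ccl24 and -0.13 for Ccl7, and for the dose difference at day 1 0.015 for Ccl22 and -0.49 for Ccl24. Both arms' untreated arrays gave 0.024 for Ccl8 at 6 h and 0.015 for Ccl4 at day 1 after 30 Gy of gamma rays, and -0.013 for the beam difference of Ccl4 at day 3. Without NR-S1 the values were -0.042 (Ccl7, 50 Gy, 6 h), -0.063 and -0.22 (Ccl3 and Ccl7, 50 Gy, day 1), 0.088, -0.022 and -0.037 (dose difference of Ccl8 at 6 h, Ccl24 at day 1 and Ccl7 at day 3) and 0.33 (Ccl3, day 3 minus 6 h, 30 Gy of gamma rays). Without SCCVII Ccl20 was -0.048 at day 1 after 50 Gy. Without NFSa the dose difference of Ccl8 at 6 h was 0.14, and day 3 minus 6 h was 0.14 for Ccl3 after 30 Gy of gamma rays, 0.24 for Ccl20 and 0.26 for Ccl24 after 50 Gy. Without #8520 Ccl4 at 6 h after 50 Gy was -0.083. In NR-S1 and NFSa alone, the values after 50 Gy were -0.72 (Ccl20) and -0.12 (Ccl3) at day 1, 0.073 (Ccl4) at day 3 and 0.14 (Ccl4, day 3 minus 6 h), and dose differences were -0.43 (Ccl20), 0.025 (Ccl4) and 0.17 (Ccl7) at day 1 and 0.055 (Ccl4) at day 3. Leaving out single arrays turned the sign of no value that had passed, but the day 1 mean of Ccl7 after 50 Gy went to 0.09 without one #8520 array (adjusted p = 0.22). Nor did median centring, the offset, the other filters, the mean of probes or the other variance model. Over all settings, 93 member values that had not passed turned their sign, some into calls, such as the beam difference of Ccl4 at 6 h, 0.094, which was -0.29 with both arms' untreated arrays (adjusted p = 3.4e-05). Dim values limit Ccl20 in SCCVII. At day 1 and day 3 after 50 Gy the raised dim end also lay near untreated Ccl11 in SCCVII and untreated Ccl20 and Ccl24 in #8520.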
